A study of Homo sapiens with 8 samples.

Results

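The genes described here are 10 genes of cell-cell junctions and intermediate filaments, read in 769-P and CAKI-1, established lines of human renal cell carcinoma (RCC), after culture with or without branched-chain amino acids (BCAAs). They are the cadherins CDH1, CDH2 and CDH6, the tight junction genes CLDN1 and OCLN, the adhesion gene EPCAM, the keratins KRT8, KRT18 and KRT19, and VIM, and they were taken by symbol, not by their values. All 10 of the 24190 genes listed for CAKI-1 and 9 of the 25431 listed for 769-P belong to this set, because CDH1 has no row in the 769-P table. That table holds no gene with fewer than 2 reads over its 4 libraries.

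The study asked how BCAAs act on RCC cells. Both lines are labelled as clear cell RCC. Routine growth medium was RPMI for 769-P and MEM for CAKI-1, with serum in both cases. The study's methods describe BCAA-depleted medium as RPMI powder free of amino acids, made up with dialyzed serum. They give no separate depleted medium for CAKI-1. For the experiment, a line received either BCAA, that is valine at 0.17 mM with leucine and isoleucine at 0.38 mM each, or none of these 3 amino acids, and total RNA was taken after 16 h. There were 2 libraries per condition and line, 8 in all, whereas a figure legend of the study gives n = 3 for its RNA-seq. Nothing in the labels says that the 2 came from separate cultures. The p-values below therefore measure only the spread between these libraries. The labels name no genetic change in either line.

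Cadherins are calcium-dependent adhesion proteins that join neighbouring cells at adherens junctions, claudins and occludin seal the tight junctions above them, and keratins and vimentin build the intermediate filaments of epithelial and mesenchymal cells. Loss of CDH1, occludin, claudins and keratins with gain of CDH2 and VIM is the textbook picture of the epithelial-to-mesenchymal transition (EMT), and SNAI1 encodes SNAIL1, a repressor known for driving it. Proximal tubule cells, from which clear cell RCC is thought to arise, are unusual among epithelia in using CDH2 and CDH6, and RCC cells commonly carry VIM beside their keratins.

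Values are reads normalized within each table by a size factor per library. A gene was called higher or lower at a Benjamini-Hochberg adjusted p under 0.05 in limma on log2(value + 1), over every gene whose mean value reached 1. Log2 fold changes are with minus without BCAA, and errors are standard errors (SE) unless given as SD. Reads on listed genes were between 30979773 and 64256834 per library. In 769-P both libraries with BCAA were deeper than both without. Markers of endothelial cells summed to at most 15 reads in any library, and those of leukocytes to at most 15. Of the 11 renal tubule and RCC markers, 10 had reads in 769-P and 7 or 8 in CAKI-1, and CA9, a defining gene of clear cell RCC, has no row in either table. The 5 fibroblast markers summed to 200 to 437 reads in 769-P and to 93301 to 153518 in CAKI-1. In CAKI-1 nearly all of these reads were on COL1A1.

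In 769-P, 3 of the 9 members tested were higher with BCAA (CDH6, KRT8 and KRT19) and 2 were lower (CDH2 and CLDN1), beside 20.3% of 22391 genes called higher and 18.2% called lower. In CAKI-1, 1 of 10 was higher (CDH6) and 5 were lower (CLDN1, EPCAM, KRT18, KRT19 and VIM), beside 10.8% and 9.05% of 21347 genes. The median log2 fold change of the members was 0.00 in 769-P, where all genes had -0.02, and -0.22 in CAKI-1, where all genes had -0.01. The effect differed between the lines for 4 of the 9 members tested in both, with KRT18, KRT19 and VIM more positive and CLDN1 more negative in 769-P. That difference was tested as an interaction in a limma model of all 8 libraries together, and was called positive for 10.9% and negative for 10.1% of 19406 genes. CDH6 and CLDN1 were called the same way in both lines, KRT19 in opposite ways. The KRT19 call in 769-P rested on 24 against 3 reads and was lost in 7 of 10 alternatives, that in CAKI-1 in 3 of 11. With any 1 library of 769-P left out, limma still called CDH6 and CLDN1, called CDH2 in 2 of the 4 cases and no longer called KRT8 or KRT19, and with any 1 library of CAKI-1 left out it called 0 genes of any kind there. edgeR on the recovered reads called CDH2, CDH6, CLDN1 and KRT8 in 769-P and CDH6, CLDN1, EPCAM, KRT19 and VIM in CAKI-1 whichever library was left out.

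**Figure D1:**
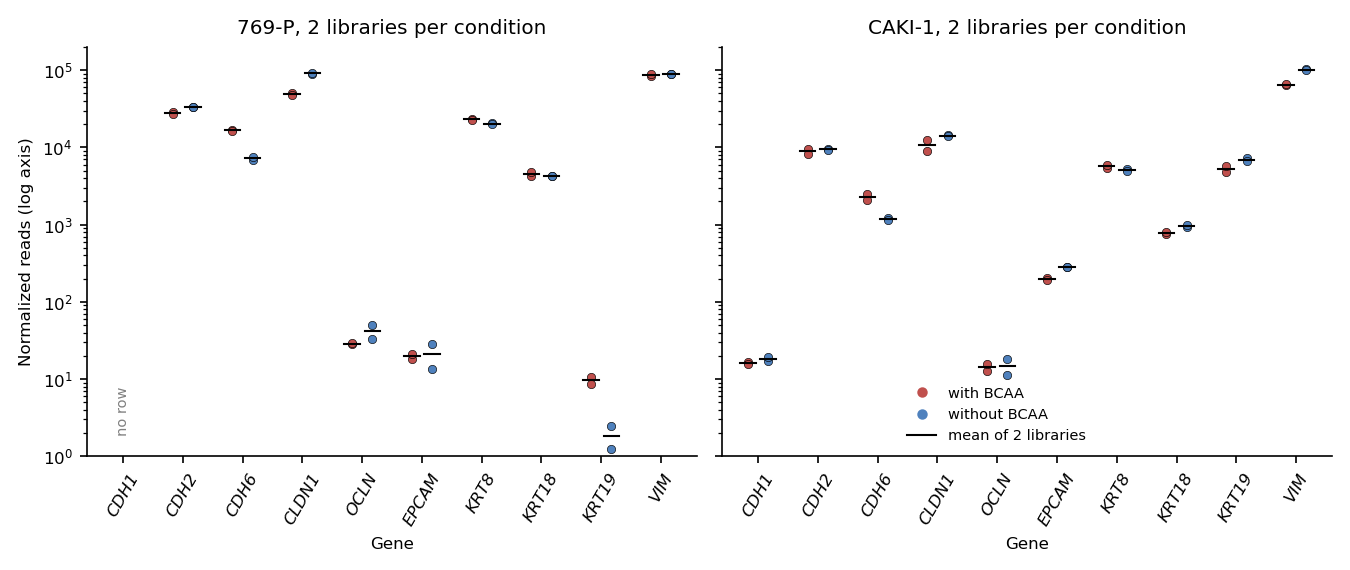
Normalized reads of the 10 members (log axis) in each library of 769-P (left) and CAKI-1 (right), with BCAA in red and without in blue. Each point is 1 library and each bar the mean of 2. CDH6 with BCAA lies above CDH6 without in both lines, CLDN1 lies below, and KRT19 lies at 10.6 or below in 769-P and at 4782 or above in CAKI-1.

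CDH6 encodes a cadherin of the kidney's proximal tubule (ENSG00000113361, GRCh38 chr5:31193750-31329146, plus strand). Its normalized reads in 769-P were 16726 and 16438 with BCAA and 6922 and 7483 without. In CAKI-1 they were 2495 and 2096 with BCAA and 1236 and 1138 without. Both libraries with BCAA stood above both without in either line. The log2 fold change was 1.20 ± 0.05 in 769-P, a 2.30-fold rise (adjusted p = 2.4e-09), and 0.95 ± 0.09 in CAKI-1, a 1.93-fold rise (adjusted p = 3.8e-05). CDH6 and KRT19 in 769-P were the members called with a change of at least 2-fold, beside 4.42% of genes called higher and 4.34% lower by that rule in 769-P and 1.42% and 0.679% in CAKI-1. The effect in 769-P exceeded that in CAKI-1 by 0.26 ± 0.11, with a 95% interval of 0.03 to 0.49, and missed the threshold after adjustment (adjusted p = 0.112). CDH6 shares 1109 bases of exon with DUX4L51 on the same strand and 125 with AC113386.1 on the other, and reads there cannot be told apart.

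CDH2 encodes N-cadherin (ENSG00000170558, chr18:27950966-28177446, minus strand), the cadherin usually set against E-cadherin in EMT. In 769-P it had 29056 and 27217 normalized reads with BCAA and 33107 and 33144 without. All of the former lay below all of the latter, and the log2 fold change was -0.24 ± 0.04 (adjusted p = 0.00064), that is, it fell by 15.1%. In CAKI-1 the values were 9642 and 8177 with BCAA and 9594 and 9384 without. These overlapped, and the log2 fold change of -0.10 ± 0.07 did not pass (adjusted p = 0.426). The difference between the lines was -0.14 ± 0.09 (95% interval -0.34 to 0.06, adjusted p = 0.322), so that the fall was called in 769-P without being shown to differ from the effect in CAKI-1.

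CDH1 encodes E-cadherin, the cadherin of most epithelia (ENSG00000039068, chr16:68737225-68835548, plus strand). In CAKI-1 it had 17 and 19 reads with BCAA and 18 and 15 without, in libraries of at least 30979773 reads. On the normalized scale, 16.5 and 15.8 with BCAA lay below 17.1 and 19.3 without. Its log2 fold change was -0.16 ± 0.44 (adjusted p = 0.851), with a 95% interval from -1.13 to 0.81. Changes within that interval remain compatible with these few reads, and in 769-P there is no row to test.

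Among the cadherins as a family the share of CDH6 moved with BCAA. Levels per kilobase of annotated exon were summed over the cadherins listed in each library, and CDH6 made up 17.9% and 18.6% of the 769-P sum with BCAA and 7.4% and 7.9% without. CDH2 made up 77.8% and 77.0% with BCAA and 88.5% and 88.0% without. In CAKI-1 CDH6 held 7.4% and 6.9% of the sum with BCAA and 3.6% and 3.5% without, whereas CDH2 held between 67.1% and 71.8% in all 4 libraries. CDH13, a cadherin held in the membrane by a lipid anchor, took between 14.5% and 21.8% of the CAKI-1 sum. With the principal transcript's length in place of all exon, CDH2 and CDH13 held similar shares in CAKI-1, at 44.1% to 51.5% and 37.5% to 49.8%.

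**Figure D2:**
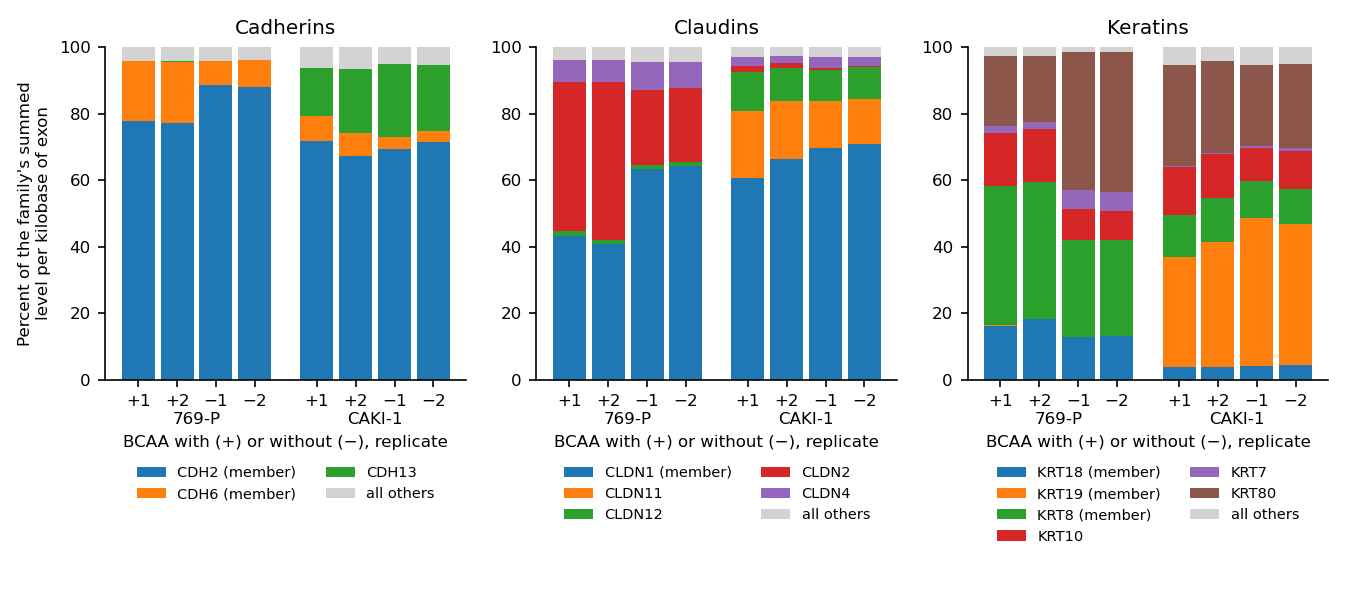
Percent of the summed level per kilobase of exon taken by each gene of the cadherins, claudins and keratins, 1 stacked bar per library, with (+) or without (−) BCAA and the replicate number below. Genes that reach 5% in no library are pooled in grey. In 769-P, CDH6 rose from 7.4% and 7.9% of the cadherins without BCAA to 17.9% and 18.6% with it, and CLDN1 fell from 63.3% and 64.2% of the claudins to 43.3% and 40.7%.

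CLDN1 encodes claudin-1, a sealing protein of tight junctions (ENSG00000163347, chr3:190305701-190322475, minus strand). In 769-P it had 50584 and 47899 normalized reads with BCAA and 89341 and 92989 without. The 2 conditions did not overlap, and the log2 fold change was -0.89 ± 0.04 (adjusted p = 8.5e-09), that is, it fell by 46.0%. In CAKI-1 the values were 9127 and 12432 with BCAA and 14301 and 13861 without. They did not overlap either, but the libraries with BCAA lay far apart, and the log2 fold change was -0.40 ± 0.11 (adjusted p = 0.0229). Without the first CAKI-1 library with BCAA it was -0.18. DESeq2, quantile normalization, reads thinned to equal depth and testing without the filter on low values did not call it, and its adjusted p ranged from 0.0079 to 0.192 over the alternatives. The fall in 769-P was the larger one, by 0.49 ± 0.14 (adjusted p = 0.0229), except that quantile normalization did not call this difference.

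The stretch just upstream of CLDN1 is shown because CLDN1 was the member that fell in both lines and is a known target of repression by SNAI-family factors, which bind the E-box CAGGTG. On the opposite strand this reads CACCTG. The letters are from RefSeq on GRCh38.p14, chr3:190322476-190322696, minus strand, 5′ to 3′, and end where the annotated gene begins.
CLDN1 upstream: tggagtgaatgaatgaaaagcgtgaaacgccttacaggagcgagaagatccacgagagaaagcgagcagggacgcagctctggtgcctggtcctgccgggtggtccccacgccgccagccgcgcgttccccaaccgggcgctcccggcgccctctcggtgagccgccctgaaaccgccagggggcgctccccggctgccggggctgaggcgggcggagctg
Read on both strands, this E-box is not in the 250 bases before the CLDN1 start. Of 7 promoter entries found for 5 members (CDH2, CLDN1, KRT8, OCLN and VIM), 2 held the letters, both of OCLN, beside 17.5% of 35116 promoters of the same length. The KRT8 entry (chr12:52926470-52926719) and a CDH2 entry (chr18:28036642-28036891) lie within the annotated gene, away from its first start. The other CDH2 entry (chr18:28177131-28177380) lies within annotated exon for all 250 bases. CDH1, CDH6, EPCAM, KRT18 and KRT19 had no entry. A match or its absence describes these letters in this window and nothing about binding.

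Other claudins moved both ways. Among the 16 others tested in 769-P, 3 were called higher and 4 lower, and among 13 in CAKI-1 1 was higher and 1 lower. Of all genes, 20.3% were called higher and 18.2% lower in 769-P, and 10.8% and 9.05% in CAKI-1. CLDN2, a channel-forming claudin of the proximal tubule, rose in 769-P by 0.75 ± 0.04 on the log2 scale and in CAKI-1 by 1.53 ± 0.20, and CLDN4 fell by 0.61 ± 0.04 and by 0.59 ± 0.12. In 769-P CLDN10 rose by 1.36 ± 0.38 and CLDN9 fell by 1.33 ± 0.38. CLDN1 and CLDN2 together made up most of the claudin sum of 769-P. CLDN2 held 44.8% and 47.5% with BCAA and 22.6% and 22.3% without, beside 43.3% and 40.7% against 63.3% and 64.2% for CLDN1. In CAKI-1 CLDN1 held 60.5% and 66.3% with BCAA and 69.8% and 70.9% without, and CLDN2 held at most 2.0%.

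OCLN encodes occludin, a membrane protein of the tight junction (ENSG00000197822, chr5:69492292-69558104, plus strand). It had 37 and 34 reads with BCAA and 40 and 27 without in 769-P, and 13 and 19 with and 12 and 14 without in CAKI-1. On the normalized scale the 769-P values were 28.1 and 29.1 with BCAA and 49.7 and 33.0 without, which did not overlap. The log2 fold change was -0.49 ± 0.36 (95% interval -1.28 to 0.30, adjusted p = 0.33). In CAKI-1 it was -0.02 ± 0.49 (95% interval -1.10 to 1.06, adjusted p = 0.986), with overlapping values. Both OCLN entries held the E-box before their RefSeq start, 33 and 133 bases upstream of it. Of the 250 bases searched, 250 lie within annotated OCLN exon for the first entry and 120 for the second. The surrounding letters, with the match in capitals, are given here for the chr5:69492502-69492531 and chr5:69492645-69492674 stretches, plus strand, GRCh38.p14.
OCLN first start: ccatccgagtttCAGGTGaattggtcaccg
OCLN second start: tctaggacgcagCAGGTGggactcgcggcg

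EPCAM encodes an epithelial adhesion molecule (ENSG00000119888, chr2:47345158-47387601, plus strand). In CAKI-1 it had 201 and 191 normalized reads with BCAA and 280 and 286 without. The conditions did not overlap, and the log2 fold change was -0.53 ± 0.14 (adjusted p = 0.0186), that is, it fell by 30.7%. That call was lost with reads thinned to equal depth and with the spread pooled over all 8 libraries, with an adjusted p of 0.0121 to 0.261 over the alternatives. In 769-P EPCAM had 24 and 25 reads with BCAA and 11 and 23 without, and normalized values of 18.2 and 21.4 against 13.7 and 28.1 overlapped. The log2 fold change there was 0.00 ± 0.48 (95% interval -1.05 to 1.06, adjusted p = 0.995), and its sign changed with the scaling and the pseudocount. The difference between the lines, 0.53 ± 0.44, did not pass (adjusted p = 0.451), with an interval from -0.42 to 1.49.

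Of the 4 intermediate filament genes, 2 were called higher and 0 lower in 769-P, beside 20.3% and 18.2% of all genes, and 0 were called higher and 3 lower in CAKI-1, beside 10.8% and 9.05%. These counts include KRT19 in 769-P, a call lost in 7 of 10 alternatives, and KRT18 in CAKI-1, lost in 6 of 11. Both counts of 0 are from limma, edgeR and DESeq2 gave 0 as well, and at an unadjusted p under 0.05 limma had 0 lower in 769-P and 1 higher, KRT8, in CAKI-1. With the spread pooled over the 8 libraries KRT8 was called higher in CAKI-1 (adjusted p = 0.0478 in limma), and edgeR called it there without the first library with BCAA. Their median log2 fold change was 0.13 in 769-P and -0.34 in CAKI-1.

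KRT8 and KRT18 encode the keratin pair of simple epithelia, which assemble with each other. They lie side by side on chromosome 12, KRT8 (ENSG00000170421) at chr12:52897187-52949954 on the minus strand and KRT18 (ENSG00000111057) at chr12:52948871-52952901 on the plus strand. KRT8 had 23226 and 23005 normalized reads with BCAA and 20481 and 20202 without in 769-P. In CAKI-1 it had 5432 and 5996 with BCAA and 5284 and 4953 without. Both libraries with BCAA exceeded both without in each line. The log2 fold change was 0.18 ± 0.04 in 769-P (adjusted p = 0.00198) and 0.16 ± 0.07 in CAKI-1 (adjusted p = 0.126), and the difference of 0.03 ± 0.08 had an interval from -0.14 to 0.19 (adjusted p = 0.854). The rise of KRT8 in 769-P was 13.6%.

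KRT18 did not follow KRT8 in CAKI-1. Its normalized reads there were 764 and 811 with BCAA and 927 and 975 without, with no overlap. The log2 fold change was -0.27 ± 0.08 (adjusted p = 0.0435), a call lost in 6 of 11 alternatives, in which the adjusted p reached 0.0813. In 769-P KRT18 had 4207 and 4769 with BCAA and 4272 and 4221 without. These overlapped, and the log2 fold change was 0.08 ± 0.06 (adjusted p = 0.364). The difference between the lines was 0.35 ± 0.10 (adjusted p = 0.0237) and was called in each of the 9 alternatives run for it.

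KRT8 and KRT18 share much of their sequence with processed copies elsewhere in the genome, so their reads are less certain. KRT19 and VIM have annotated processed copies too, with few or no shared stretches. Of all 50-base windows in the coding sequence, 48.3% for KRT8 and 38.7% for KRT18 recur without change in transcripts of other genes, against 2.1% for KRT19 and 0.0% for CDH6, CLDN1 and VIM. Reads counted on the KRT8 copies equalled between 14.6% and 19.3% of those on KRT8 in each library, and those on KRT18 copies between 3.5% and 7.8% of those on KRT18. With the copies added, the log2 fold change of KRT8 was 0.18 in 769-P and 0.14 in CAKI-1, and that of KRT18 was 0.07 and -0.23. KRT8 and KRT18 also share 525 bases of exon on opposite strands, and the sources used here do not say whether strand was used in counting, so reads there cannot be told apart.

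KRT19 encodes a small keratin that pairs with KRT8 in simple and ductal epithelia (ENSG00000171345, chr17:41523617-41528308, minus strand). In CAKI-1 it had 4782 and 5821 normalized reads with BCAA and 7255 and 6701 without. The conditions did not overlap, and the log2 fold change was -0.40 ± 0.08 (adjusted p = 0.00634), that is, it fell by 24.3%. That call was lost with quantile normalization, with thinned reads and with the spread pooled over the 8 libraries. In 769-P there were only 14 and 10 reads with BCAA and 1 and 2 without. The summed 24 against 3 reads, scaled by the size factors, gave a ratio of 5.22 with an exact 95% interval of 1.58 to 27.1, which covers counting error only. The limma log2 fold change of 1.92 ± 0.70 (adjusted p = 0.0491) depended on the pseudocount of 1, and edgeR, DESeq2 and 5 other alternatives did not call it. The difference between the lines was 2.32 ± 0.30 (adjusted p = 9.6e-05) and was called in the 8 alternatives that could test it. In 769-P this difference rests on the same 24 and 3 reads. Its SE is from a spread estimate shared by all 8 libraries, and is smaller than that of the 769-P effect alone.

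Other keratins moved both ways. In 769-P 2 of 9 tested were higher and 4 lower, and in CAKI-1 1 of 6 was higher and 1 lower. The shares of all genes called higher and lower were 20.3% and 18.2% in 769-P and 10.8% and 9.05% in CAKI-1. KRT7, a keratin of simple epithelia, fell by 72.7% in 769-P and fell by 59.5% in CAKI-1. On the log2 scale KRT15 rose by 1.79 ± 0.11 in 769-P and KRT10 by 0.30 ± 0.08 in CAKI-1. Per kilobase of exon, KRT8 made up 42.0% and 41.1% of the 769-P keratin sum with BCAA and at most 29.1% without, while KRT80, named here after its values were seen, made up 21.2% and 19.8% against 41.5% and 42.0%. With the principal transcript's length the KRT8 shares were higher, at 62.4% and 61.1% against 48.9% and 48.9%. On that same scale KRT19 held 33.0% and 37.6% of the CAKI-1 sum with BCAA and 44.6% and 42.3% without.

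VIM encodes vimentin, the intermediate filament of mesenchymal cells (ENSG00000026025, chr10:17228259-17237593, plus strand). In CAKI-1 it had 64620 and 65548 normalized reads with BCAA and 104102 and 100173 without. All values with BCAA were lower, and the log2 fold change was -0.65 ± 0.06 (adjusted p = 2.1e-05), that is, it fell by 36.3%. In 769-P it had 84458 and 88700 with BCAA and 90273 and 88164 without. These overlapped, and the log2 fold change of -0.04 ± 0.04 did not pass (95% interval -0.13 to 0.04, adjusted p = 0.419). It was 0.13 with quantile normalization and -0.10 with median centring, which called it. The difference of 0.61 ± 0.07 (adjusted p = 2.3e-05) between the lines was called in each of the 9 alternatives. VIM shares 641 bases of exon with its antisense gene VIM-AS1, which had between 24.7 and 123 normalized reads in any library. VIM and CLDN1 fell together in CAKI-1, so the 250 bases before the VIM start are shown as well (RefSeq, GRCh38.p14 chr10:17227991-17228240, plus strand), and they hold no such E-box.
VIM upstream: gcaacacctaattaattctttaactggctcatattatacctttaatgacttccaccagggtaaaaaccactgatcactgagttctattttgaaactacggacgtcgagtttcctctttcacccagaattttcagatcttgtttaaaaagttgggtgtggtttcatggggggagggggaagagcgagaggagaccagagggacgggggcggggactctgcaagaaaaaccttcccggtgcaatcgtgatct

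In the CAKI-1 libraries VIM was called lower. Of the 4 fibroblast markers tested there, 2 were called higher (COL1A1 and PDGFRB), 0 lower, and 2 were not called. Of all genes, 10.8% were called higher and 9.05% lower. The median log2 fold change of the 4 was 0.13. Neither COL1A1 nor PDGFRB was followed through the alternatives. COL1A1, a fibroblast collagen, had 145196 and 120846 normalized reads with BCAA and 98609 and 116332 without, and its log2 fold change was 0.31 ± 0.10 (adjusted p = 0.0427), while VIM fell. The summed level of the 5 fibroblast markers, as reads per kilobase of exon scaled to the library (RPKM), was 403 and 342 with BCAA and 280 and 324 without. This sum is mostly COL1A1 again. Its part in the VIM result was not tested. In bulk RNA, a fall in the share of cells that express a gene and a fall in RNA per cell cannot be told apart.

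**Figure D3:**
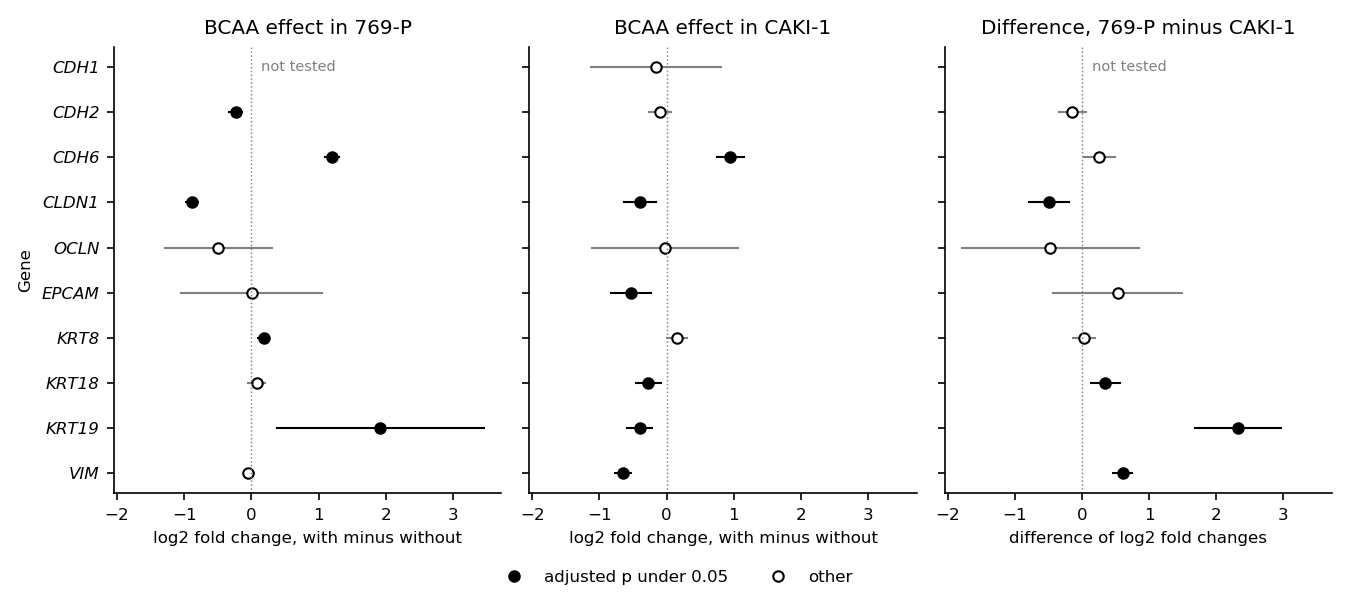
Log2 fold change (with minus without BCAA) of each member in 769-P and in CAKI-1, and the difference of the 2 effects, on 1 shared axis. Bars are 95% intervals from limma with 2 libraries per condition, filled points have an adjusted p under 0.05, and CDH1 could be tested in CAKI-1 only. CDH6 stands at 1.20 and 0.95, CLDN1 at -0.89 and -0.40, and VIM at -0.04 and -0.65.

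Counted by separation alone, 3 of 9 members in 769-P had both libraries with BCAA above both without and 3 had both below, beside 33.6% and 33.5% of all genes tested. In CAKI-1 these were 2 and 6 of 10, beside 28.9% and 28.8%. With 2 libraries against 2, an exact two-sided permutation test cannot give a p below 0.333, so no single-gene exact test is reported.

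Levels can be compared between genes only per length, here as RPKM from the recovered reads, that is, reads per kilobase of annotated exon scaled to the reads on listed genes. VIM stood at 348 ± 17.1 (SD, n = 2) in 769-P and 321 ± 4.5 in CAKI-1 with BCAA, and at 354 ± 8.8 and 499 ± 16.5 without. CLDN1 stood at 279 ± 6.7 and 75.0 ± 16.5 with BCAA and at 510 ± 10.3 and 96.8 ± 2.7 without. Without BCAA in 769-P the CLDN1 level was thus above that of VIM, an order that turned with the principal transcript's length, where VIM had 856 and CLDN1 537. CDH2 stood at 118 in 769-P with BCAA and 137 without, and at 45.8 and 48.3 in CAKI-1. At the low end EPCAM, OCLN and KRT19 in 769-P and CDH1 and OCLN in CAKI-1 lay below 0.2 in both conditions. The tables were normalized separately, so levels of the 2 lines are set side by side without a test.

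The partners of the members were read from 9 lists of 136 other genes. Each list count here and in the next paragraphs stands beside the shares of all genes called. These were 20.3% higher and 18.2% lower in 769-P, and 10.8% higher and 9.05% lower in CAKI-1. Of the catenins and other adherens junction partners, which tie cadherins to actin, 7 of 13 were higher and 4 lower in 769-P and 4 of 13 higher and 0 lower in CAKI-1. NECTIN1 rose by 1.17 ± 0.12 in 769-P, and NECTIN2 by 0.55 ± 0.05 in 769-P and 0.32 ± 0.07 in CAKI-1. PKP4, a catenin-like junction protein, fell by 0.19 ± 0.05 in 769-P and rose by 0.44 ± 0.07 in CAKI-1. Of the other cadherins, 2 of 9 were higher and 1 lower in 769-P, with CDH4 falling by 1.99 ± 0.21 and CDH17 rising by 0.92 ± 0.34, a call lost in 7 alternatives. In CAKI-1 0 of 10 were higher and 1 lower, namely CDH13, which fell by 0.38 ± 0.09, a call lost in 3 of 11 alternatives with an adjusted p of up to 0.577 in limma. For each 0 among the 9 lists edgeR and DESeq2 called 0 as well, except that edgeR called 1 other intermediate filament gene lower in CAKI-1, and limma at an unadjusted p under 0.05 had between 0 and 2 genes.

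Other tight junction and polarity genes were called higher for 8 of 17 and lower for 3 in 769-P, and higher for 1 of 16 and lower for 2 in CAKI-1. CGNL1, which encodes the junction protein paracingulin, rose in 769-P by 2.20 ± 0.07 and JAM3 by 2.32 ± 0.45. PATJ, a polarity scaffold, fell by 0.17 ± 0.05 in 769-P and 0.26 ± 0.08 in CAKI-1. Among desmosome genes 1 of 9 was higher and 3 lower in 769-P and 0 of 9 higher and 2 lower in CAKI-1. DSC2, a desmosomal cadherin, rose in 769-P by 0.74 ± 0.07 and the plaque protein PKP2 fell by 1.23 ± 0.14. In CAKI-1 PPL, which encodes periplakin, fell by 0.60 ± 0.18, a call lost in 4 of 11 alternatives, and DSG2, a desmosomal cadherin, fell by 0.19 ± 0.06, lost in 3.

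Of the other intermediate filament and linker genes, 5 of 13 were higher and 3 lower in 769-P and 2 of 12 higher and 0 lower in CAKI-1. The B-type nuclear lamins rose in both lines, LMNB1 by 1.74 ± 0.04 and 1.63 ± 0.07 and LMNB2 by 1.07 ± 0.05 and 1.09 ± 0.06. NES, a filament of progenitor cells, rose by 2.36 ± 0.37 in 769-P. PRPH, which encodes the neuronal filament peripherin, had 6.8 and 0.9 normalized reads with BCAA and 154 and 146 without in 769-P.

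Among epithelial regulators and EPCAM partners, 1 of 11 was higher and 4 lower in 769-P and 1 of 11 higher and 2 lower in CAKI-1. KLF4, an epithelial transcription factor, fell by 1.79 ± 0.05 and 1.06 ± 0.16. SPINT2, a serine protease inhibitor, fell by 0.20 ± 0.04 and 0.55 ± 0.07. ELF3, another epithelial transcription factor, fell by 0.83 ± 0.07 in 769-P and rose by 0.38 ± 0.06 in CAKI-1. Among EMT transcription factors SNAI1 rose in both lines. It had 170 and 126 normalized reads with BCAA and 26.1 and 18.3 without in 769-P, and 429 and 360 against 202 and 166 in CAKI-1. The log2 fold changes were 2.68 ± 0.30 and 1.10 ± 0.15. SNAI2, its close relative, fell by 87.5% in 769-P and fell by 27.5% in CAKI-1. In all 1 of 6 factors was higher and 2 lower in 769-P, and 1 of 6 higher and 1 lower in CAKI-1.

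**Figure D4:**
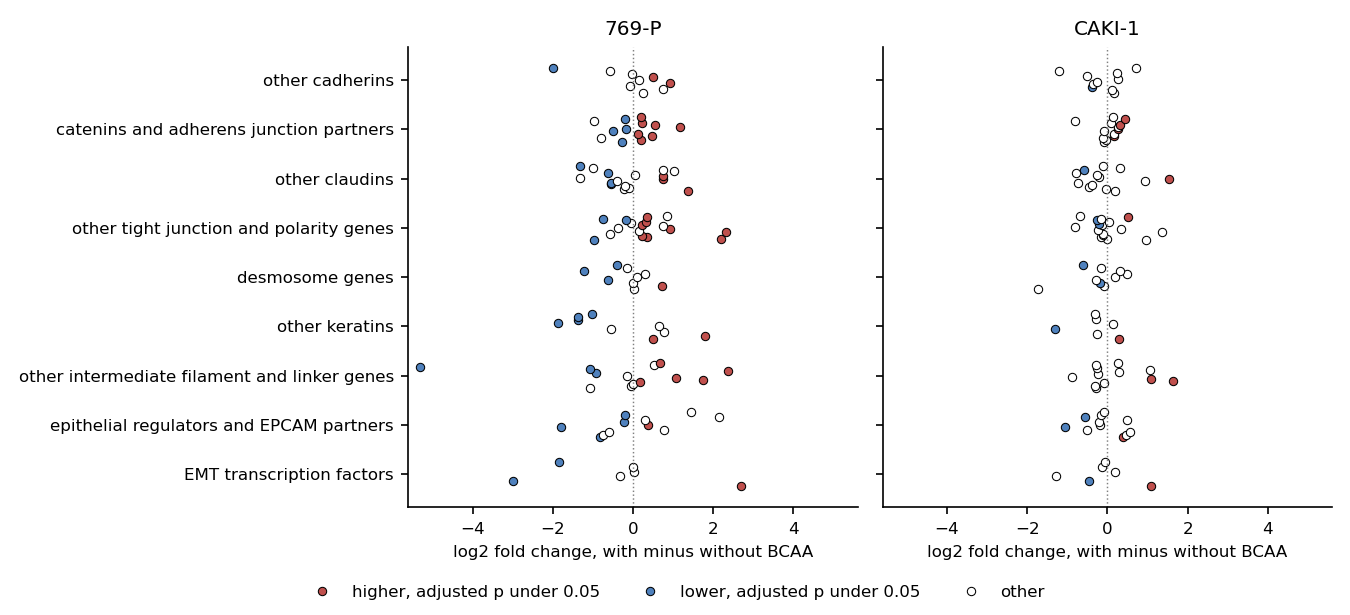
Log2 fold change (with minus without BCAA) of every tested gene of the 9 lists beside the members, 103 in 769-P and 96 in CAKI-1, with 1 point per gene and 1 row per list. Red points were called higher, blue ones lower, and white ones neither. Values run from -5.31 to 2.68 in 769-P and from -1.73 to 1.63 in CAKI-1.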

How the data were processed

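RNA-seq of 769-P and CAKI-1 cells was analysed from 8 libraries, 2 per condition, grouped by the cell line and treatment labels. For either line the authors deposited 1 table of signal values, which are reads per gene divided by a median-of-ratios size factor per library (0.777 to 1.32). All values (100%) were whole reads within 0.01, so reads were recovered. The submitters' processing notes name Trim Galore, TopHat2 2.1.0, SAMtools 1.3.1, HTSeq 0.6.0, DESeq2, DESeq and hg38. The annotation and the use of strand are not given in the sources used here. Symbols, positions and exon lengths came from GENCODE 29 (GRCh38), which named 25032 of 25431 and 23881 of 24190 genes.

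Genes with a mean of at least 1 were tested with limma 3.58.1 in R 4.3.3 (lmFit, eBayes with trend) on log2(value + 1) within each line, with Benjamini-Hochberg adjustment over all of them. A log2(value + 1) fold change understates that of low genes. The difference between lines was the interaction in 1 fit over the 8 libraries, in which each effect is a contrast within a table. Alternatives were pseudocounts of 0.1 and 5, no filter and a mean of at least 10, median centring, quantile normalization, a replicate block, a spread pooled over 8 libraries, edgeR 4.0.16 and DESeq2 1.42.0 on recovered reads, reads thinned to 30979773 per library, 2-fold and 0.01 thresholds, and each library left out. Lengths of principal transcripts and edgeR with libraries left out were added after seeing the data. The limma test within a line was also tried on simulated reads, with changes planted only in genes with a mean of at least 20. That trial does not cover changes in low genes, and no result above rests on it. The members and lists were chosen with earlier results of these data known. All members and SNAI1 are named, and from each other list, in each line, up to 2 called genes with the largest change among those with a mean of at least 20 and no overlap between conditions. Some results are not reported here because their items are withheld.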

Additional observations from a re-analysis of the deposited data

Results flagged for a closer look

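The BCAA effect differed between the lines, by the interaction term of limma at an adjusted p of at most 0.025, for 17 of the genes named. Genes other than the members and SNAI1 were named for a large change in a line, so 17 does not measure how common such differences are. At an adjusted p under 0.05 the difference was called positive for 10.9% and negative for 10.1% of all 19406 genes. Values are the log2 effect in 769-P minus that in CAKI-1. Groups of 2 libraries are too small for a check of single outlying libraries.

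Among the members the difference was -0.49 for CLDN1, which fell in both lines, 0.35 for KRT18, 2.32 for KRT19 and 0.61 for VIM. KRT19 was called in opposite ways. Its call in 769-P rested on 24 against 3 reads and was lost in 7 of 10 alternatives. Among junction genes it was 0.89 for NECTIN1, called higher in 769-P. For PKP4 the difference was -0.63, lower in 769-P and higher in CAKI-1. For DSC2 it was 0.82 and for PKP2 -1.54, both called in 769-P and not in CAKI-1. CGNL1 had the largest difference of the tight junction genes named, 2.22, with effects of 2.20 and -0.02. CLDN2 rose in both lines and differed by -0.78. Among filaments the difference was 2.05 for KRT15 and -0.57 for KRT7, which fell in both lines. Among transcription factors and their kind it was 1.59 for SNAI1, -2.54 for SNAI2, -0.73 for KLF4 and -1.21 for ELF3, the last called lower in 769-P and higher in CAKI-1. SPINT2 fell in both lines, with a difference of 0.35.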

How the results depend on the processing

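With a fold change of at least 2 required, 989 genes were higher and 971 lower in 769-P, 303 and 145 in CAKI-1, and 365 and 445 for the difference between lines, with members at 0 lower in 769-P, 0 and 0 in CAKI-1, and 1 and 0 for the difference. At an adjusted p under 0.01 CAKI-1 had 1417 and 1012 genes with 2 members lower, and the difference 1224 and 1155 with 0 members lower. Quantile normalization gave 1417 higher in CAKI-1 with 2 members lower and 0 members lower for the difference, and thinned reads 1499 and 1094 with 1 member lower. In CAKI-1 the members called lower numbered 3 without the filter, 3 with the pooled spread, which called 2 higher, and 3 with DESeq2.

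Leaving out 1 library left 1173 to 1632 genes higher and 658 to 1456 lower in 769-P, with 1 member higher each time and 1 to 2 lower, and 1531 to 2146 and 1376 to 1967 for the difference, with 2 to 3 and 0 to 2 members. In CAKI-1 limma called 0 genes in either direction, members included, whichever library was left out, while 4084 to 5590 genes had an unadjusted p under 0.05. edgeR called 1720 to 2762 higher and 1446 to 2748 lower in the same 4 cases, and CDH6, CLDN1, EPCAM, KRT19 and VIM each time. In 769-P it called CDH2, CDH6, CLDN1 and KRT8 each time.

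The replicate numbers did not pair the libraries (correlation of deviations -0.09 in 769-P and 0.06 in CAKI-1). With the replicate block, 4692 and 4233 genes were called in 769-P and 2133 and 1803 in CAKI-1, with KRT19 in 769-P and KRT18 and DSG2 in CAKI-1 no longer called, and 1824 and 1667 for the difference.

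Some uncalled values changed sign. EPCAM in 769-P, 0.00, was -0.0075 with a pseudocount of 5, -0.0098 with thinned reads, -0.052 with median centring, -0.060 with edgeR and -0.081 with DESeq2, and -0.49 to 0.50 with a library left out. VIM in 769-P was 0.13 and OCLN in CAKI-1 0.031 with quantile normalization. With a library left out OCLN in CAKI-1 ran from -0.33 to 0.29, CDH2 in CAKI-1 from -0.21 to 0.023, KRT18 in 769-P from -0.014 to 0.17, the KRT8 difference from -0.045 to 0.10, and CGNL1 in CAKI-1 from -0.14 to 0.10. The cause of these changes was not tested. Other scalings moved the median of all genes by less than 0.1. KRT19 in 769-P was not tested at a mean of at least 10. Of 92 effects of named genes, 74 kept their direction and their side of the threshold in the alternatives run for single genes, which leave aside the 2-fold and 0.01 thresholds, applied to counts only, and leaving out a library. In CAKI-1 the calls of CLDN4 and KRT10 were lost with quantile normalization and thinned reads, that of NECTIN2 with quantile normalization and that of PATJ with thinned reads. CDH13 ran from -0.52 to -0.24 with a library left out.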
